A study of Arabidopsis thaliana with 20 samples.

Results

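In the inflorescence stem of Arabidopsis thaliana, 41 genes had low transcript ratios in the sections more than 5 cm from the tip and markedly higher ratios in the section just above. They were chosen by their measured ratios. Starting from 8170 spots annotated with a single gene and measured on at least 19 of 20 arrays, 43 spots had mean log2 ratios of -1.2 or lower in both the 5-7 and 7-9 cm sections, a mean under 0.5 in the 3-5 cm section, and a mean lower by at least 1 in the 5-7 than in the 3-5 cm section. The rule leaves out OPS and the trichome birefringence-like, expansin, class III peroxidase and cytosolic ribosomal protein genes, which removed OPS and TBL45, and the remaining 41 spots stood for 41 loci (0.502% of the 8170 spots). All values from 3 cm downwards therefore served to choose the genes and are given as a description, without tests. A ratio of 2 RNAs has no zero, so low values here do not show that a gene was shut off.

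The stems came from accession Ler, which carries a mutation in the receptor kinase gene ERECTA and has shorter stems than other accessions. Plants were grown in short days and then moved to long days, and flowers, fruits, leaves and side branches were taken off before the stem was cut. Sections were named by distance from the tip. Stems about 10 cm long, harvested on day 14 after the change of day length, gave sections of 0-3, 3-5, 5-7 and 7-9 cm. Stems about 5 cm long, harvested on day 12, gave the 2-4 cm section and the 0-2 cm section used as reference on every array. Each of the 5 sections was hybridised on 4 arrays against this reference, with the dyes exchanged on 2 of them by the source names of the samples. The labels do not say how many plants went into a section or whether replicates are different plants, and the spread between arrays may be technical. All values below are log2 ratios of a section over the reference unless a percentage is named, and 0 means a level equal to that in the reference.

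The stem grows from its tip, so distance from the tip follows the age of the tissue: cells divide near the apex, elongate below it and then stop growing and thicken or lignify their walls. Growing cells lay down and loosen primary walls built of cellulose, xyloglucan and pectin, and the outer cell layer covers the growing surface with cutin and wax. Green stem tissue also makes chlorophyll through light-dependent protochlorophyllide oxidoreductases. A stem section holds many cell types, so fewer cells of a type and less RNA per cell cannot be told apart in these ratios. None of 18 marker genes of epidermis, xylem, phloem, meristem and floral organs had a spot named here, so the makeup of the sections was not checked.

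The arrays of a section resembled each other least at the top of the stem. Across 25720 spots the correlation between arrays of the same section lay between -0.211 and 0.551 in 0-3 cm and between 0.131 and 0.578 in 2-4 cm. It was at least 0.743 in 3-5 cm, 0.572 in 5-7 cm and 0.649 in 7-9 cm. Within 0-3 cm, pairs of arrays with the section in the same dye had correlations of 0.480 and 0.551. Pairs of arrays with opposite dyes had -0.211 to 0.395 there. Values in steps of 0.1 were deposited for 3 arrays, namely replicate 3 of 0-3 cm and of 7-9 cm and replicate 2 of 5-7 cm. The labels contradict themselves on the dye of 3 arrays, one of 5-7 cm (replicate 4) and replicates 2 and 4 of 7-9 cm, and on the stem length of 3-5 cm replicate 1. By the sample descriptions every 7-9 cm array had the section in Cy3, so the exchange of dyes there depends on which label is right. The dyes of the source names were used. Scanner photomultiplier settings (Cy3 and Cy5) were 62 and 59 on the 2-4 cm arrays and 62 and 61 on the 3-5 cm arrays, so setting and section cannot be told apart for them. In 5-7 cm and in 7-9 cm, replicates 1 and 2 had settings of 62 and 60, as had every 0-3 cm array, while replicates 3 and 4 had 63 and 60. The scanner laser was at 95% on 0-3 cm replicate 2 and at 90% on every other array.

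Across the 41 genes the median ratio was -0.20 in the 0-3 cm section, -0.08 in 2-4 cm, -0.35 in 3-5 cm, -1.88 in 5-7 cm and -2.25 in 7-9 cm. The medians of all spots measured alike lay between -0.02 and 0.02. On a linear scale the gene medians of the 5-7 and 7-9 cm sections correspond to 27.1% and 21.0% of the level in the reference. Every gene lay below 0 on all 4 arrays of 5-7 cm and all 4 arrays of 7-9 cm. The array medians of the 41 genes were -1.89, -1.80, -2.01 and -2.003 in 5-7 cm (replicates 1 to 4), against -0.37, -0.39, -0.43 and -0.53 in 3-5 cm. In 38 of 41 genes all 5-7 cm arrays lay below all 3-5 cm arrays, which held for 6.89% of the 25711 spots measured on at least 19 arrays. Since this difference chose the genes, the count has no weight of its own. Overlap occurred in PRA1.F1, AT1G12845 and AT2G34210, through a single array of 5-7 cm each (-0.54, -0.56 and -1.05).

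**Figure D1:**
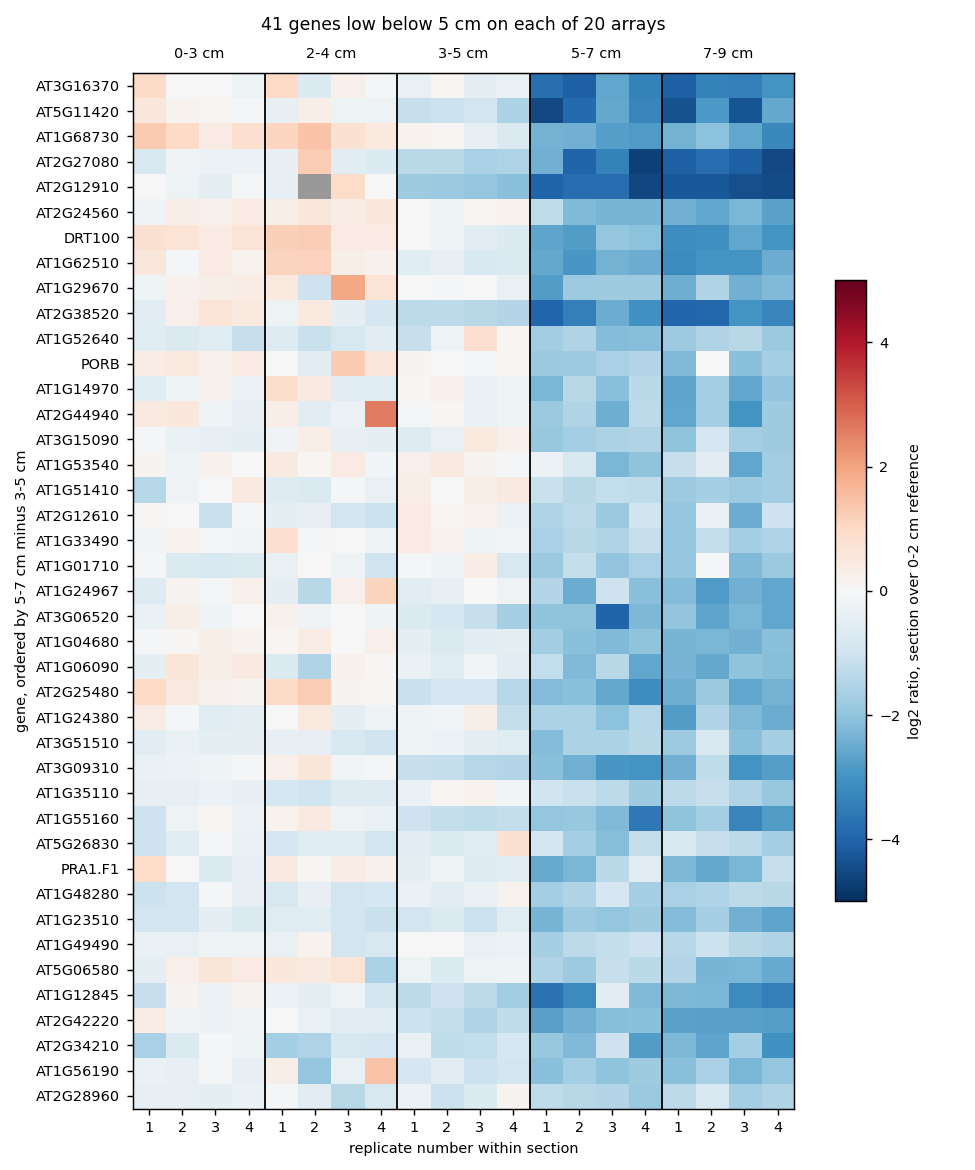
Log2 ratio of section over 0-2 cm reference for 41 genes (rows, ordered by the difference between 5-7 and 3-5 cm) on each of 20 arrays (columns, 4 replicates for each of 5 sections). Blue is below the reference and red above it, and the grey cell is an unmeasured value. The arrays of 5-7 and 7-9 cm are blue for all 41 genes, whereas those above 5 cm are mostly pale.

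The genes differed in how low they already were in 3-5 cm. In the 3-5 cm section 26 of 41 had a mean within 0.5 of the reference, 15 had a mean of -0.5 or lower, and 10 of those had one of -1 or lower. Means in 3-5 cm lay above 0 for 6 genes. The difference between 5-7 and 3-5 cm had a median of -1.49 and ran from -3.17 to -1.03. Between 7-9 and 5-7 cm the means of 28 genes were lower still and those of 13 higher, with a median difference of -0.17 and a range of -0.72 to 0.25. Over all tested spots, 1 of 25720 (0.00389%) passed the limma test between these sections.

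Genes just inside the thresholds were AT5G26830, with a mean of -1.23 in 7-9 cm, and AT2G28960 and AT1G56190, with differences between 5-7 and 3-5 cm of -1.03 and -1.04. Just outside lay AT2G48080 with -1.197 in 5-7 cm, and AT1G63290 and AT1G11800, with differences between 5-7 and 3-5 cm of -0.99 each.

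Of the 41, 10 were grouped as secreted, wall and lipid genes, going by their family membership, and not each of them is tied to the wall or to lipids. The difference between 5-7 and 3-5 cm was largest among all 41 genes in AT3G16370, a member of the GDSL esterase and lipase family, whose plant members hydrolyse or build lipid esters. Its ratios were -3.76, -4.10, -2.61 and -3.38 in 5-7 cm, against -0.38, 0.08, -0.50 and -0.36 in 3-5 cm. In 7-9 cm they were -4.10, -3.38, -3.40 and -2.98. The groups of arrays above and below 5 cm did not overlap, and the mean of -3.47 ± 0.64 in 5-7 cm (SD, n = 4) corresponds to 9.05% of the reference level. In the upper sections the same gene scattered around the reference, from -0.23 to 0.95 in 0-3 cm and from -0.69 to 1.00 in 2-4 cm.

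AT5G11420, a wall protein gene of the DUF642 family, whose products bind cell wall polymers, had ratios of -4.53, -3.90, -2.57 and -3.29 in 5-7 cm, against -1.14, -1.08, -0.97 and -1.60 in 3-5 cm. It was low on every 3-5 cm array already and lower again, without overlap, on every 5-7 cm array. The other GDSL genes of the set, AT2G24560 and AT1G29670, were near the reference level in 3-5 cm. AT2G24560 had -1.27, -2.20, -2.32 and -2.31 in 5-7 cm, against -0.0048, -0.21, 0.09 and 0.19 in 3-5 cm. AT1G29670 had -2.79, -1.80, -1.76 and -1.77 in 5-7 cm, against -0.0058, -0.12, -0.03 and -0.38 in 3-5 cm. Neither gene had overlapping values between these sections, though replicate 1 of 5-7 cm stood apart from the other 3 arrays in both, in opposite directions.

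DRT100 (AT3G12610), a leucine-rich repeat gene named for complementing DNA repair mutants of Escherichia coli, had -2.64, -2.80, -1.95 and -2.05 in 5-7 cm, against 0.0006, -0.25, -0.54 and -0.70 in 3-5 cm. AT1G62510, of the lipid-transfer and seed storage albumin superfamily of small secreted proteins, had -2.56, -2.90, -2.37 and -2.47 in 5-7 cm, against -0.59, -0.40, -0.75 and -0.72 in 3-5 cm. The ranges of both genes in 5-7 and 3-5 cm were separate. AT1G04680, of the pectate lyase family that cleaves de-esterified pectin, had a mean of -2.02 in 5-7 cm and of -0.56 in 3-5 cm. AT1G06090, related to delta-9 acyl desaturases, had -1.86 and -0.41, and AT1G01710, of the acyl-CoA thioesterase family, had -1.67 and -0.18 in these sections. AT1G49490, a leucine-rich repeat extensin gene, had a mean of -1.30 in 5-7 cm and -0.17 in 3-5 cm. In AT1G01710 the low value in 7-9 cm rested on 3 arrays, since replicate 2 gave -0.11 and the others -1.93, -2.20 and -1.84.

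**Figure D2:**
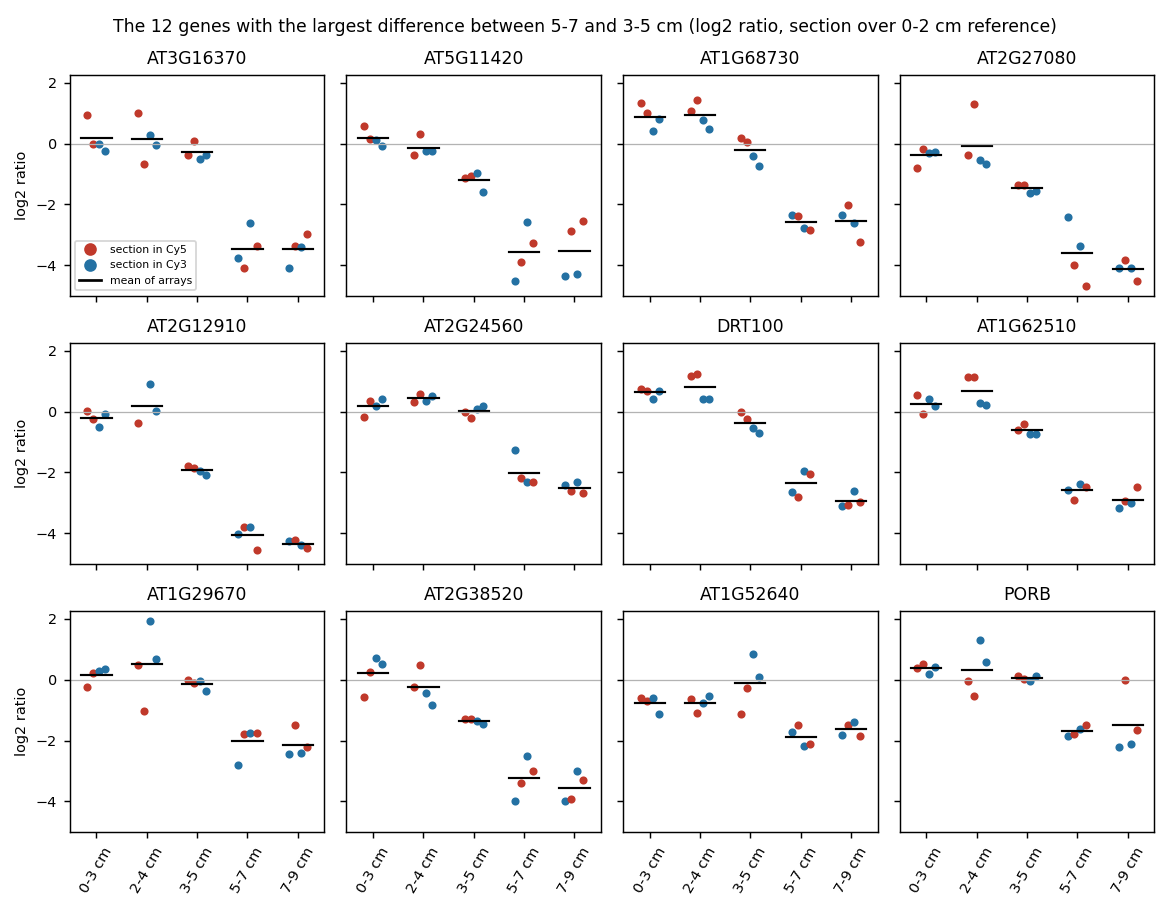
Log2 ratio of section over 0-2 cm reference on each array for the 12 genes with the largest difference between 5-7 and 3-5 cm. Red points are arrays with the section in Cy5, blue points those with the section in Cy3, and black bars the mean of the arrays. In AT3G16370 and AT2G24560 the means stay near 0 through 3-5 cm, whereas in AT2G12910 and AT2G27080 they are already at -1.36 or lower there.

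The group of plastids and central metabolism has 6 genes, going by their families. PORB (AT4G27440), a light-dependent protochlorophyllide oxidoreductase of chlorophyll synthesis, had -1.85, -1.80, -1.62 and -1.48 in 5-7 cm, against 0.13, 0.01, -0.04 and 0.11 in 3-5 cm. Its arrays were tight in both sections and did not overlap. In 7-9 cm PORB had -2.21, -2.10 and -1.67 on replicates 1, 3 and 4 and -0.025 on replicate 2, so its mean of -1.50 ± 1.01 there (SD, n = 4) joins 3 low arrays and 1 at the reference level. AT1G51410, of the cinnamyl alcohol dehydrogenase-like reductases, had a mean of -1.25 in 5-7 cm, against 0.26 in 3-5 cm, the highest of the 41 means in 3-5 cm. AT3G15090, of the zinc-binding alcohol dehydrogenase family, had -1.66 in 5-7 cm and -0.07 in 3-5 cm. AT1G56190, of the phosphoglycerate kinase family of glycolysis and the Calvin cycle, had -1.90 and -0.85.

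Among the other metabolic genes, AT5G06580, which encodes a D-lactate dehydrogenase, had means of -1.45 in 5-7 cm and -0.35 in 3-5 cm. AT2G42220, of the rhodanese family, had -2.34 and -1.26. Another spot annotated with AT2G42220 did not follow it: its means were 0.06 in 0-3 cm, -0.17 in 2-4 cm, 0.14 in 3-5 cm, -0.09 in 5-7 cm and 0.11 in 7-9 cm. It was the only locus of the 41 with another measured spot, so the low ratio of AT2G42220 is uncertain, and none of the other genes had another spot to set beside its own.

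In the group of protein folding, signalling and trafficking are 7 genes. AT1G68730, of the Zim17 type zinc finger family that assists Hsp70 chaperones of organelles, had -2.35, -2.40, -2.77 and -2.84 in 5-7 cm, against 0.18, 0.04, -0.40 and -0.74 in 3-5 cm. AT2G27080, of the hydroxyproline-rich late embryogenesis abundant family, was lower in mean, with -2.42, -4.0, -3.38 and -4.67 in 5-7 cm, against -1.36, -1.36, -1.61 and -1.56 in 3-5 cm. Neither gene overlapped between these sections, and AT2G27080 reached -4.13 ± 0.29 in 7-9 cm (SD, n = 4). AT1G14970, of the O-fucosyltransferase family, had -1.78 in 5-7 cm and -0.06 in 3-5 cm. AT2G25480, of the TPX2 family of microtubule-binding proteins, had -2.48 and -1.04, PRA1.F1 (AT1G17700), a prenylated Rab acceptor of membrane traffic, -1.68 and -0.48, and AT2G28960, a leucine-rich repeat kinase gene, -1.51 and -0.48. AT1G53540, which encodes a class I small heat shock protein, had -0.28, -0.80, -2.27 and -2.003 in 5-7 cm, against 0.26, 0.45, 0.14 and -0.08 in 3-5 cm, so its replicates 1 and 2 stood above replicates 3 and 4 in 5-7 cm.

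Of 5 genes of gene expression and protein synthesis, AT2G44940, an AP2/ERF transcription factor gene, had -1.84, -1.50, -2.45 and -1.30 in 5-7 cm, against -0.06, 0.11, -0.32 and -0.22 in 3-5 cm. AT1G52640, of the pentatricopeptide repeat family that binds organelle RNA, had -1.73, -1.50, -2.17 and -2.13 in 5-7 cm, against -1.14, -0.26, 0.83 and 0.10 in 3-5 cm. Both were separate between the sections, although the 3-5 cm arrays of AT1G52640 lay on both sides of the reference. AT3G06520, with an agenet domain, had means of -2.57 in 5-7 cm and -1.11 in 3-5 cm. AT2G34210, related to the transcription elongation factor SPT5, had -1.99 and -0.94, and AT5G26830, which encodes a threonyl-tRNA synthetase, -1.48 and -0.27.

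Among the 41 loci, 5 are annotated as pseudogenes, 12.2% of the 41, compared with 369 (4.52%) of the 8170 single-gene spots. The lowest mean in 5-7 cm of all 41 belonged to one of them, AT2G12910, with -4.02, -3.80, -3.80 and -4.56 in 5-7 cm, against -1.78, -1.86, -1.94 and -2.10 in 3-5 cm. On a linear scale its 5-7 cm mean corresponds to 6.05% of the reference level. AT2G38520 had -3.98, -3.40, -2.4995 and -3.02 in 5-7 cm, against -1.30, -1.29, -1.37 and -1.47 in 3-5 cm. Both loci were thus low in 3-5 cm already but were not called in limma further up, with estimates of 0.17 (on 3 arrays) and -0.25 in 2-4 cm and of -0.20 and 0.22 in 0-3 cm. AT2G12610, AT1G35110 and AT1G24967 had 5-7 cm means of -1.42, -1.30 and -1.77, against 3-5 cm means of 0.09, -0.05 and -0.28.

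For the remaining 8 genes no role is given. AT1G33490 had a mean of -1.43 in 5-7 cm and 0.07 in 3-5 cm. AT1G24380 had -1.67 and -0.31 and AT3G51510 -1.69 and -0.39. AT1G48280 and AT1G23510 had -1.43 and -1.96 in 5-7 cm, against -0.26 and -0.82 in 3-5 cm. AT3G09310, AT1G55160 and AT1G12845 had 5-7 cm means of -2.59, -2.41 and -2.42, against 3-5 cm means of -1.31, -1.18 and -1.35, so that all 3 were low before the 5 cm mark.

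Scanner setting could be compared within the lower sections. In 5-7 cm the median of the 41 genes was -1.90 at 62 and 60 (replicates 1 and 2) and -1.88 at 63 and 60 (replicates 3 and 4), and 37 genes were at -1.2 or lower at both settings. In 7-9 cm the medians were -2.15 and -2.35, and 35 genes were at -1.2 or lower at both. The rule chose the genes by the means of these same arrays, so low values at both settings are largely fixed by the choice. In 5-7 cm 5 genes differed by more than 1 between the settings. AT1G53540 had -0.54 at 62 and 60 and -2.14 at 63 and 60, and AT3G06520 had -2.01 and -3.14. AT5G11420 had -4.21 and -2.93, PRA1.F1 had -2.42 and -0.95, and AT1G12845 had -3.45 and -1.39. In 7-9 cm 5 genes did, all lower at 63 and 60. There AT1G53540 had -0.87 at 62 and 60 and -2.16 at 63 and 60, AT1G01710 had -1.02 and -2.02, and AT3G09310 had -1.84 and -2.87. AT1G55160 had -1.84 and -3.05, and AT1G12845 had -2.26 and -3.30, opposite to its difference in 5-7 cm. In 7-9 cm replicate 2, an array with conflicting dye labels, 23 of 41 genes had their highest value of that section, and its median was -1.71, against -2.23, -2.40 and -2.21 on replicates 1, 3 and 4. The labels conflict as well for replicate 4 of 7-9 cm and of 5-7 cm, where 5 and 12 genes had their highest value of the section. The part of the setting and of the labels in these values was not tested.

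**Figure D3:**
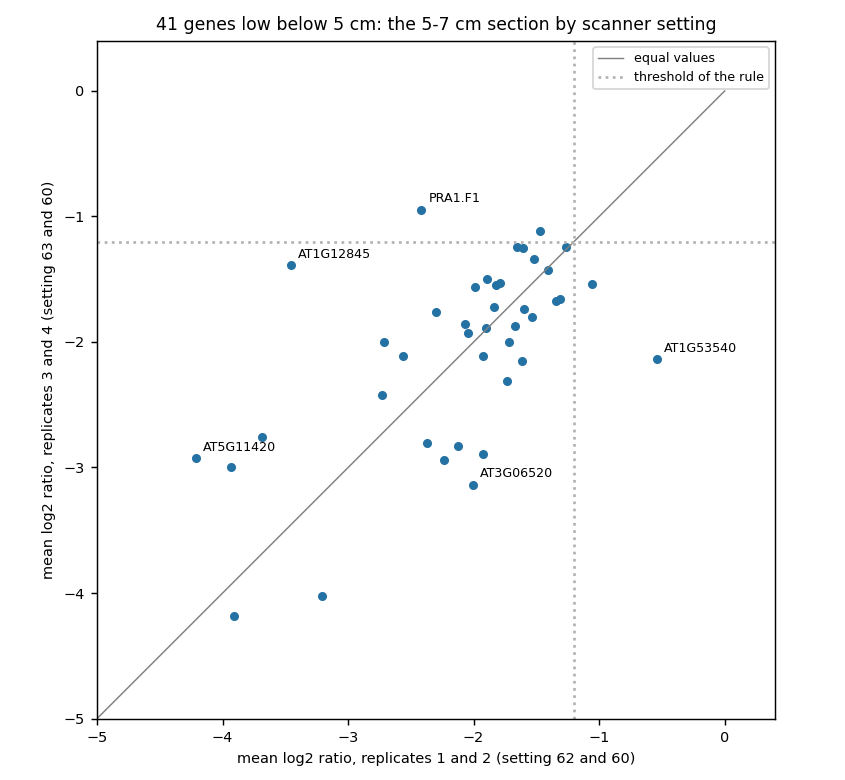
Mean log2 ratio over the 0-2 cm reference of each of the 41 genes in the 5-7 cm section, from replicates 1 and 2 scanned at 62 and 60 (horizontal axis) and from replicates 3 and 4 scanned at 63 and 60 (vertical axis). The line marks equal values, dotted lines the threshold of -1.2, and names the 5 genes that differ by more than 1. The points scatter on both sides of the line, and AT1G53540 and PRA1.F1 are among the 4 genes that miss the threshold at a single setting.

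The arrays of the 0-3 and 2-4 cm sections took no part in choosing the genes, and tests are given for them. All sections were set against the same reference RNA, so a level particular to that RNA enters the upper ratios as well as those that chose the genes. The first of these comparisons set the uppermost 3 cm of 10 cm stems against the uppermost 2 cm of 5 cm stems. Of the 41 genes, 2 were higher (4.88%) and 3 lower (7.32%) at an adjusted p under 0.05 (limma, Benjamini-Hochberg over 25720 spots), and 36 were not called. Over all tested spots 2.18% were called higher and 1.29% lower, 3.47% in all. The median of the 41 genes was -0.20 in this section, that of all tested spots -0.02, and 26 of 41 lay below 0. The median of the 41 genes was -0.06 without 0-3 cm replicate 1 and -0.08 with array weights.

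AT1G68730 had ratios of 1.32, 1.00, 0.40 and 0.80 in 0-3 cm, all above the reference, and was higher by 0.88 ± 0.18 (SE, adjusted p = 0.00644 in limma). DRT100 had 0.76, 0.68, 0.40 and 0.69 and was higher by 0.63 ± 0.16 (SE, adjusted p = 0.0326 in limma). Both genes were above the reference on all 4 arrays of 0-3 cm and below it on all arrays from 5 cm down. AT1G23510 had -0.96, -0.97, -0.50 and -0.73 and was lower by 0.79 (log2 ratio -0.79 ± 0.15, adjusted p = 0.00397 in limma). AT1G48280, with -1.09, -0.95, -0.10 and -0.41, was called lower at -0.64 ± 0.16 (adjusted p = 0.0288 in limma). AT1G52640, with -0.62, -0.71, -0.60 and -1.14, was called lower at -0.77 ± 0.20 (adjusted p = 0.0358 in limma). These 3 lay below the reference on all 4 arrays. Values split by dye in AT1G68730, with the higher pair in Cy5, and in AT1G23510 and AT1G48280, with the lower pair in Cy5. In 2-4 cm the lower pair of AT1G23510 and AT1G48280 was in Cy3 instead. The fit holds a dye term common to all sections, which does not take up a split that reverses between sections. No such split was present in DRT100 and AT1G52640.

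These calls depended on single arrays. Without 0-3 cm replicate 4 neither gene was called higher, and AT1G68730 was then at 0.85 and DRT100 at 0.57. DRT100 and AT1G52640 lost their calls whenever any single 0-3 cm array was left out, AT1G48280 without replicate 1, 2 or 4, and AT1G23510 without replicate 2. Leaving the dye term out of the fit ended the calls of DRT100, AT1G52640 and AT1G48280. AT1G52640 also lost its call with a replicate term in the fit and without the 3 arrays in steps of 0.1. Without replicate 2 no gene was called lower, and 336 spots were called in all, against 892 with all arrays.

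**Figure D4:**
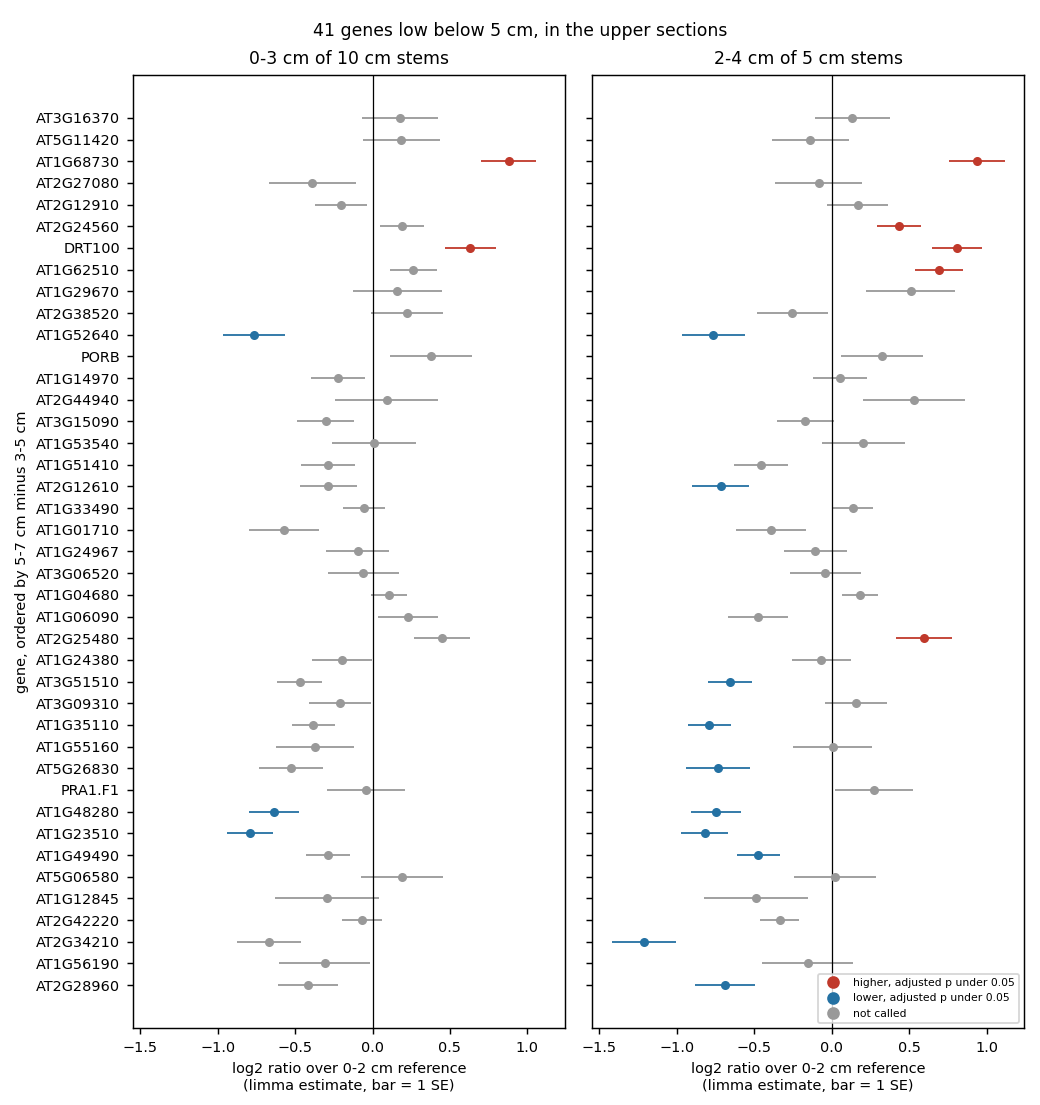
Log2 ratio of the 0-3 cm section of 10 cm stems (left) and of the 2-4 cm section of 5 cm stems (right) over the 0-2 cm reference for 41 genes, as limma estimates with bars of 1 SE. Red marks genes called higher, blue genes called lower and grey genes not called at an adjusted p of 0.05. In the 2-4 cm section 5 genes are red and 10 blue, and in the 0-3 cm section 2 are red and 3 blue.

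The second comparison followed the shorter stems downwards, with the 2-4 cm section set against the uppermost 2 cm. It called 15 of 41 genes (36.6%), 5 higher (12.2%) and 10 lower (24.4%), and 26 were not called. Of all 25720 tested spots 13.5% were called, 6.63% higher and 6.89% lower. The median of the 41 genes was -0.08 and that of all tested spots 0.0047. Both sections come from the shorter stems, so this is the only contrast that places the 41 genes along a 5 cm stem.

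All 5 genes called higher belong to the secreted, wall and lipid group or to that of folding, signalling and trafficking. AT1G68730 had 1.08, 1.43, 0.77 and 0.48 in 2-4 cm, all above the reference, and was higher by 0.94 ± 0.18 (SE, adjusted p = 0.00123 in limma). DRT100 had 1.17, 1.25, 0.40 and 0.42 (0.81 ± 0.16, adjusted p = 0.00203 in limma) and AT1G62510 had 1.12, 1.14, 0.28 and 0.22 (0.69 ± 0.15, adjusted p = 0.00442 in limma). In AT1G68730, DRT100 and AT1G62510 the higher pair of values came from replicates 1 and 2, with the section in Cy5. The lower pair came from replicates 3 and 4, with it in Cy3. AT2G25480, the TPX2 family gene, had the same split, with 0.95 and 1.27 against 0.12 and 0.05 (0.60 ± 0.18, adjusted p = 0.0333 in limma). AT2G24560, the GDSL gene, was even across its arrays at 0.30, 0.56, 0.36 and 0.52 (0.44 ± 0.14, adjusted p = 0.0459 in limma).

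Of the genes called lower, AT2G34210 had the lowest mean, with ratios of -1.70, -1.53, -0.78 and -0.85 in 2-4 cm (-1.21 ± 0.21, adjusted p = 0.000461 in limma). AT1G35110, a pseudogene, had -0.89, -0.98, -0.66 and -0.63 (-0.79 ± 0.14, adjusted p = 0.000557 in limma), and AT1G23510 had -0.62, -0.59, -0.96 and -1.12 (-0.82 ± 0.15, adjusted p = 0.000948 in limma). All 3 lay below the reference on every array. Their values split by dye too, with the lower pair in Cy5 for AT2G34210 and AT1G35110 and in Cy3 for AT1G23510. AT1G48280 was called at -0.75 ± 0.16, AT3G51510 at -0.66 ± 0.14, AT1G52640 at -0.76 ± 0.20 and AT2G12610 at -0.72 ± 0.18, with adjusted p in limma of 0.00349, 0.00373, 0.0143 and 0.0121. The threonyl-tRNA synthetase gene AT5G26830 (-0.74 ± 0.21), the kinase gene AT2G28960 (-0.69 ± 0.19) and the extensin gene AT1G49490 (-0.47 ± 0.14) were called lower too, with adjusted p in limma of 0.0209, 0.0214 and 0.0278. AT1G49490 falls outside the rule for named genes and is named because it completes the count. A split by dye, with the lower pair in Cy3, was also present in AT1G48280, AT3G51510, AT2G12610, AT2G28960 and AT1G49490. It was absent in AT1G52640 and AT5G26830.

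By role, 3 of 10 secreted, wall and lipid genes, DRT100 among them, were higher in 2-4 cm and 1 lower (median 0.16). Of 7 genes of folding, signalling and trafficking 2 were higher and 1 lower (median 0.20). Of 5 genes of gene expression and protein synthesis 3 were lower (median -0.74), as were 2 of 5 pseudogenes (median -0.25) and 3 of 8 genes without a role (median -0.28), and in limma none of these 3 groups had a higher gene, at an unadjusted p under 0.05 either. None of the 6 genes of plastids and central metabolism was called in limma in either upper section, with medians of -0.18 in 0-3 cm and -0.16 in 2-4 cm, and at an unadjusted p under 0.05 they numbered 0 in 0-3 cm and 2, both lower, in 2-4 cm. These roles were assigned after the values had been seen, so the counts describe the set and carry no test.

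Several 2-4 cm calls rested on single arrays. AT2G24560 lost its call whichever of the 4 arrays was left out, AT2G25480 without replicate 1 or 2, AT1G62510 and AT2G12610 without replicate 1, and AT1G52640 without replicate 2 or 3. AT5G26830 and AT1G49490 lost theirs without replicate 1, 3 or 4, and AT2G28960 without replicate 3 or 4. Leaving the dye term out of the fit ended the calls of AT2G24560, AT2G25480, AT2G12610 and AT1G49490, and fitting the 2-4 cm arrays alone ended those of AT2G24560 and AT1G49490. Taking the dyes from the sample descriptions, in place of the source names, ended those of AT2G24560 and AT2G12610. Without replicate 1, 2 genes were called higher, and without replicate 3, 6 were called lower. AT1G68730, DRT100, AT2G34210, AT1G35110, AT1G23510, AT1G48280 and AT3G51510 kept their 2-4 cm calls under all 13 alternatives tried.

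Setting the 2-4 cm section of 5 cm stems against the 0-3 cm section of 10 cm stems removes the reference from the estimate. None of the 41 genes was called in limma, against 0.260% of all tested spots, and 2 (4.88%) passed an unadjusted p of 0.05, which 7.86% of all tested spots did. Of these, AT1G06090, the desaturase-like gene, had a difference of -0.71 ± 0.27 (SE, adjusted p = 0.479 in limma), with -0.68, -1.48, 0.21 and 0.04 in 2-4 cm, against -0.47, 0.62, 0.30 and 0.47 in 0-3 cm. AT1G35110 had a difference of -0.41 ± 0.19 (SE, adjusted p = 0.622 in limma). The median difference was 0.02 for the 41 genes and 0.01 for all tested spots, and that of the 41 genes was below 0 with centring and scaling and without 2-4 cm replicate 1 or 3. All 5 genes called in 0-3 cm were called in 2-4 cm in the same direction, 2 higher and 3 lower, and 3 higher and 7 lower genes were called in 2-4 cm alone, although the difference between the sections was called for none of them.

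Relatives of 4 families were set beside the genes of the set, with families chosen after the values had been seen. Genes that met the rule are not counted among the relatives, whereas the shares over all tested spots include them. A lack of strong drops among the relatives is therefore partly fixed by the rule. Of 48 other GDSL genes with a spot, 10 were higher and 8 lower in 5-7 cm, with a median of -0.05, where 40.0% of all tested spots were called, 19.7% higher and 20.2% lower. In the difference between 5-7 and 3-5 cm, where 5.90% of all tested spots were called and 3.47% were lower, AT3G14220 alone of the 48 was lower (-0.82 ± 0.18, adjusted p = 0.00925 in limma). Of 5 other DUF642 genes 4 were lower in 5-7 cm, but 3 of the 5 were already called lower in 3-5 cm (20.2% of all tested spots) and none was called between 5-7 and 3-5 cm in limma, where 1 was lower at an unadjusted p under 0.05. Of 10 other pectate lyase genes 5 were lower and 1 higher in 5-7 cm, and 3 were lower in 5-7 than in 3-5 cm. AT1G11920 had the largest such difference of these 3 (-2.43 ± 0.21, adjusted p = 7.445e-07 in limma). Its means of -0.76 in 5-7 cm and 1.68 in 3-5 cm lay outside both limits of the rule.

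Of 3 other desaturase-like genes, AT1G06120 was at -1.53 in 5-7 cm, against 1.29 in 3-5 cm (difference -2.83 ± 0.29, adjusted p = 5.73e-06 in limma). AT1G06100 was at -1.56 in 5-7 cm and at -1.25 in 3-5 cm already, and the difference was not called for it. AT1G06360 was not called lower in either section. AT1G06090, AT1G06100 and AT1G06120 are closely numbered copies on the same chromosome, and whether their spots share transcripts was not tested.

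**Figure D5:**
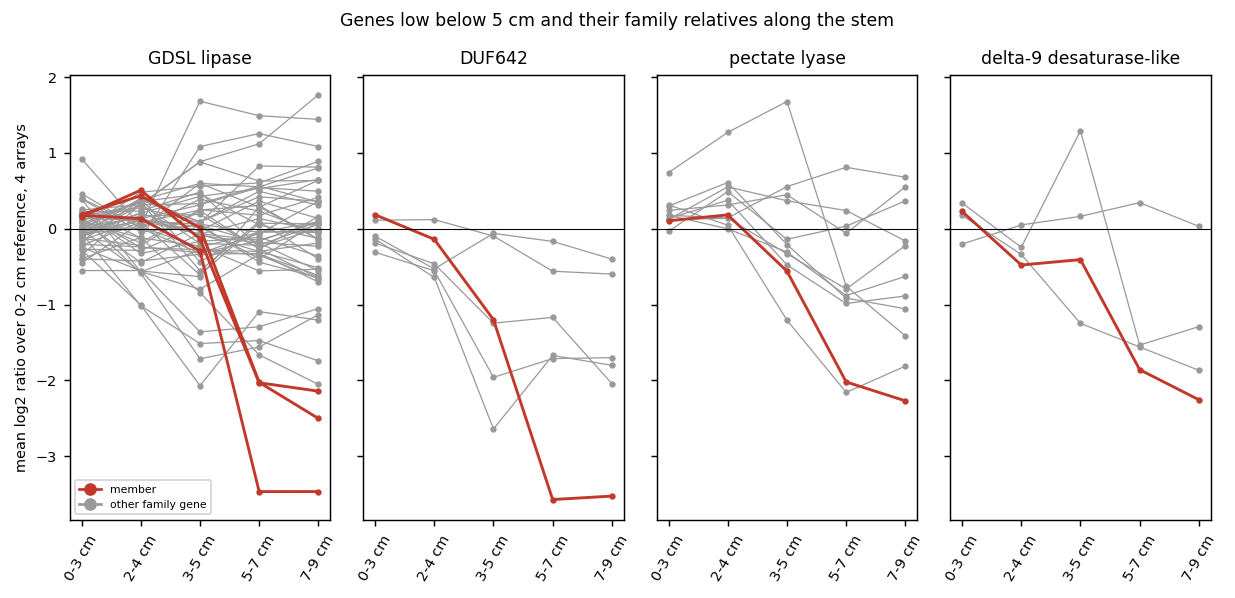
Mean log2 ratio over the 0-2 cm reference (4 arrays per section) of genes in 4 families along the stem, with genes of the set in red and other family genes in grey. The 2-4 cm section comes from 5 cm stems and the other 4 sections from 10 cm stems. The 3 red GDSL genes lie at -2.02, -2.03 and -3.47 in 5-7 cm, whereas most of the 48 grey GDSL genes stay near 0. The rule chose the red genes by these values, so the contrast is partly fixed by it.

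By their locus names most of the 41 genes lie on chromosomes 1 and 2, and the share of all single-gene spots there was not counted. No pair of the 41 lay within 10 genes of each other. Their spots fell in 29 of 48 print blocks, with at most 4 in a block. Of 17360 measured spots without a gene name here, 145 (0.835%) met the same numeric conditions, compared with 43 (0.526%) of the single-gene spots.

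Other genes of stem growth could hardly be set beside the 41. The 13 lists of cuticle, primary and secondary wall, aquaporin, tubulin, hormone and tissue marker genes were given by locus or by a word. Words were sought in gene names and synonyms only, and such lists hold just the genes found that way. Those for arabinogalactan, lipid transfer and gibberellin found none, and the GDSL genes and AT1G62510 of the set were missed. The total of 105 listed genes is therefore not a full count. Of these, 6 genes had a named spot. None of the 6 belongs to the set, which says little about the families sought by word. Of these 6, BRH1, a brassinosteroid-responsive RING finger gene, was higher in 2-4 cm (0.48 ± 0.13, adjusted p = 0.0146 in limma), in 3-5 cm (1.12 ± 0.13, adjusted p = 4.089e-07) and in 5-7 cm (0.90 ± 0.13, adjusted p = 8.601e-06). The GDSL gene AT1G54010 was higher in 2-4 cm (0.38 ± 0.12, adjusted p = 0.0364 in limma), in 3-5 cm (0.60 ± 0.12, adjusted p = 0.000274) and in 5-7 cm (0.55 ± 0.12, adjusted p = 0.000638). TUA1, an alpha-tubulin gene, was called lower in 5-7 cm (-0.85 ± 0.29, adjusted p = 0.0233 in limma). COB, which guides cellulose deposition, GUT2, which acts in xylan synthesis, and the beta-tubulin gene TUB7 were called in neither upper section in limma and not in 5-7 cm.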

How the data were processed

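Spotted two-colour arrays compared RNA of stem sections with RNA of the 0-2 cm section. The deposited values are log2 ratios, per the titles section over reference. Their log base is not stated and was taken as 2, so percentages of the reference depend on it. Per the labels' protocols, a ScanArray Express scanner was used. How the authors corrected background and normalized the ratios is not given in the sources used here. How far a spot lay above background is unknown, as intensities were not analysed here, and the small number of arrays limits the precision.

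From the deposited log2 ratios, limma 3.58.1 in R 4.3.3 fitted 5 section means and a dye term to 20 arrays, followed by eBayes, for 25720 spots measured on at least 3 arrays of every section. Each section was tested against 0, two-sided, with Benjamini-Hochberg adjustment at 0.05. Each SE comes from a spread shared by all 5 sections, not from the 4 values of the section alone. Spread was unequal among sections. The median range of the 41 genes over 4 arrays was 0.66 in 0-3 cm, 0.91 in 2-4 cm, 0.50 in 3-5 cm, 0.87 in 5-7 cm and 0.92 in 7-9 cm. The reference is the control's RNA on every array, so its own spread is left out. The fit was checked on simulated data. Gene names come from the platform annotation, updated through the TAIR10.1 RefSeq table. The genes named by rule are the 30 with the largest difference between 3-5 and 5-7 cm, up to 10 called per test, those nearest the thresholds, and other spots of the same loci. Further genes are named so that all 41 are accounted for, chosen after their values were seen. The set and the lists were chosen with earlier results of these data known, and roles were assigned from family names afterwards. Planned promoter motifs were not run, since no promoter sequences were used here. Alternatives were other centring and scaling, array weights, dye, scanner and replicate terms, other filters and left-out arrays.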

Additional observations from a re-analysis of the deposited data

Results flagged for a closer look

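A single array stood far from the other 3 of its section, by Dixon's test at the 95% level, in 12 of 209 sets of 4 arrays (5.742%), and chance alone is expected to mark about 1 set in 20. In 5-7 cm AT2G24560 had -1.272 on replicate 1 and -2.32 to -2.20 on the others, AT1G29670 had -2.794 on replicate 1 and -1.80 to -1.76 on the others, and AT3G06520 had -4.013 on replicate 3 and -2.26 to -2.0 on the others. In 7-9 cm AT1G01710 had -0.1076 on replicate 2 and -2.20 to -1.84 on the others. In 2-4 cm AT2G27080 had 1.288 on replicate 2 and -0.68 to -0.39 on the others, and AT5G06580 had -1.5735 on replicate 4 and 0.45 to 0.66 on the others. In 3-5 cm AT5G26830 had 0.7594 on replicate 4 and -0.72 to -0.52 on the others, and AT5G06580 had -0.6982 on replicate 2 and -0.26 to -0.20 on the others. In 0-3 cm AT2G12610 had -1.1 on replicate 3 and -0.09 to 0.04 on the others. Also in 0-3 cm, AT1G01710 had -0.0736 on replicate 1 and -0.80 to -0.69 on the others, AT1G33490 had 0.1631 on replicate 2 and -0.15 to -0.1 on the others, and AT1G35110 had -0.3 on replicate 3, an array deposited in steps of 0.1, and -0.4109 to -0.4092 on the others.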

How the results depend on the processing

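No called gene changed direction under any alternative run, but the median of the 41 genes between 2-4 and 0-3 cm, 0.0173 as reported, was -0.0126 with centring and scaling, -0.0146 without 2-4 cm replicate 1 and -0.0007 without replicate 3. With centring and scaling 2822 spots were called in 0-3 cm, 6202 in 2-4 cm and 476 between 2-4 and 0-3 cm (892, 3478 and 67 as reported), 8 of the 41 genes were lower in 0-3 cm, and 27 genes met the rule. With array weights the counts were 1877, 5273 and 226, and the median of the 41 genes in 0-3 cm was -0.0832. Without a dye term 36 spots were called between 2-4 and 0-3 cm, 1 gene was higher and 1 lower in 0-3 cm, and 3 were higher in 2-4 cm. With only the arrays of the compared section 1986 spots and 6 lower genes were called in 0-3 cm. Same-numbered arrays did not vary together (median correlation -0.067 over 40 pairs, 0.015 over 120 pairs of different number), and with the replicate block 43 spots were called between 2-4 and 0-3 cm. Leaving out 1 array at a time gave 336 to 941 spots in 0-3 cm, 1994 to 2739 in 2-4 cm and 31 to 81 between them. Of the 41 genes it gave 0 to 1 higher and 0 to 2 lower in 0-3 cm, 2 to 5 higher and 6 to 9 lower in 2-4 cm, and medians of -0.186 to -0.0639, -0.1622 to -0.0785 and -0.0146 to 0.088. The rule then met 39 to 52 genes. The cause of these shifts was not tested. With scanner setting 62 and 60 alone the rule gave 58 genes, 31 of them shared, and with 63 and 60 alone 44, with 34 shared. Left out after seeing the data, the 3 arrays in steps of 0.1 gave 39 genes and the 3 with conflicting dye labels 45. Without spot intensities, how far background limits the lowest ratios is not known.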
